A study of Mus musculus with 6 samples.

Results

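The genes described here encode CD43 and 9 other molecules by which leukocytes hold on to each other, to vessel walls and to matrix: the mucins *Spn* (CD43) and *Selplg* (PSGL-1), the hyaluronan receptor *Cd44*, the integrin ligand *Icam1*, the integrin α subunits *Itgal*, *Itgax* and *Itga4*, and the β subunits *Itgb1*, *Itgb2* and *Itgb7*. They were selected by symbol from the 24445 genes of the count table, with the difference between the groups already known, and all 10 were among the 12023 genes that passed the filter on low counts. Because the selection used that difference, the values of these 10 genes are a description and carry no test.

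RNA was sequenced from bone marrow-derived macrophages (BMDMs) of female C57Bl/6J mice, with 3 libraries in each of 2 groups. AclyM-KO mice carry floxed exon 9 of *Acly* (Acly fl/fl) together with Lyz2-Cre, which drives the deletion in myeloid cells, and Ctrl are Acly fl/fl littermates, labelled WT. All 6 cultures were grown for 7 days in medium with L929-conditioned medium and then received 100 U/mL IL-4 for 24 h. The comparison asks how the loss of ATP citrate lyase, the enzyme that makes cytosolic acetyl-CoA from citrate, changes IL-4-treated macrophages, and naive cells were not analysed here. Lyz2-Cre is named for AclyM-KO alone, so effects of the Cre allele and of *Acly* loss cannot be told apart. The libraries are described both as biological replicates and as technical replicates of pooled mice, so p-values measure only the spread between these libraries.

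Leukocytes leave the blood in steps. Selectins catch mucin-like ligands such as PSGL-1 and slow the cell, activated integrins then bind ligands of the immunoglobulin family such as ICAM-1, and the cell crosses the vessel wall and moves on matrix. Integrins work only as pairs of an α and a β chain, so that αL, αM, αX and αD share β2, while α4 pairs with β1 or β7. CD43 is a large, heavily sialylated mucin that can keep cells apart as well as serve as a ligand, and its cytoplasmic tail is tied to actin through ezrin, radixin and moesin (ERM proteins).

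The 300 bases around the start of transcription, 250 before and 50 after, were available for 7 of the 10 genes in RefSeq's table for GRCm38.p6. *Selplg*, *Itgal* and *Itgb2* had no entry. The promoters of *Spn* and *Itgax* are shown because their genes had the largest difference in either direction among the 10, that of *Itgb7* because its gene had the next largest positive difference, and that of *Icam1* as the ligand of the β2 integrins. *Spn* is read on the minus strand of chr7:127137774-127138073, *Itgax* on the plus strand of chr7:128129300-128129599, *Itgb7* on the minus strand of chr15:102231886-102232185 and *Icam1* on the plus strand of chr9:21015690-21015989. Capitals mark matches to the motifs described after the sequences.
Spn: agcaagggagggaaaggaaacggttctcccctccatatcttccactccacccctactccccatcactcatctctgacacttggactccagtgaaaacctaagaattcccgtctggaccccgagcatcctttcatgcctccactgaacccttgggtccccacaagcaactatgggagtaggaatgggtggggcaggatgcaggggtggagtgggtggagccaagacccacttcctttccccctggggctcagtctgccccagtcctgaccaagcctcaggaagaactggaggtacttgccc
Itgax: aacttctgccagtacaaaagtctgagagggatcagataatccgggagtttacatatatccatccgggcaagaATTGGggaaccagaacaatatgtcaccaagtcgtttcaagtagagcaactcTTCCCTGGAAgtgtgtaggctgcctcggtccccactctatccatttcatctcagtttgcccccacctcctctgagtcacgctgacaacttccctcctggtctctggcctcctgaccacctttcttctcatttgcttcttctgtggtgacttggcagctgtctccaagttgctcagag
Itgb7: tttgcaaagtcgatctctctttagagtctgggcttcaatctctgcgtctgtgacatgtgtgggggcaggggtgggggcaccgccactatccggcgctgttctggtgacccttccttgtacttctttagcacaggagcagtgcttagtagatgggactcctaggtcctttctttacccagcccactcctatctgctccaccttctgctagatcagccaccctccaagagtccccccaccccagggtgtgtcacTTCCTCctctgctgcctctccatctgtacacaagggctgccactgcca
Icam1: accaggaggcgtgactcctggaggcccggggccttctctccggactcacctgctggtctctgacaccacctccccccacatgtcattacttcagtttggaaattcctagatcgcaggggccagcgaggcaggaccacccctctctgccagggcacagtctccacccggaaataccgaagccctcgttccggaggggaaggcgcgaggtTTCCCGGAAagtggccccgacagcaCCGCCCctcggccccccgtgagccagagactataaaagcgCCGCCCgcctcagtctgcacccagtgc

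Both strands were searched for the longer STAT element (TTC and GAA with 4 bases of any kind between them, the spacing preferred by STAT6, the factor that IL-4 activates), for the shorter STAT element TTCNNNGAA, the spacing of other STAT proteins, for ACGTG, the core of hypoxia response elements, for GAGGAA, a core bound by the myeloid factor PU.1, for GGGCGG, the GC box, and for CCAAT. The *Spn* window held none of these motifs, and 57.3% of its bases were G or C, against a median of 52.7% over all promoters. In the *Itgax* window, the longer STAT element, a palindrome, began 127 bases before the start, and CCAAT lay on the minus strand. The first of these occurs in 7.0% of the 32851 promoters of the table and CCAAT in 37.4%. *Itgb7* had a single GAGGAA on the minus strand, a motif of 28.3% of promoters. *Icam1* had TTCNNNGAA, found in 8.3% of promoters, and 2 GC boxes on the minus strand, found in 35.7%. Among the windows not shown, *Cd44* also held the longer STAT element and was the only one of the 7 with ACGTG, which occurs in 19.6% of promoters. No match overlapped another. A match describes letters and not a bound site, and a window without one says nothing about the factor.

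The libraries had 12151975 to 15587283 counts on the rows used. *Acly*, the targeted gene, went from 4917, 3925 and 4606 counts in Ctrl to 2140, 2078 and 1978 in AclyM-KO, a log2 fold change of -1.27 ± 0.05 (SE), so its level fell in the libraries labelled KO. *Lyz2*, which drives the Cre, fell by 0.67 on the log2 scale. The macrophage markers *Adgre1* and *Csf1r* were at 1573 ± 75.9 and 2434 ± 142 CPM (counts scaled to library size; mean ± SD, n = 3) in Ctrl. Over all genes, 358 were called higher (2.98%) and 309 lower (2.57%) in AclyM-KO, where a call needs an adjusted p under 0.05 and a log2 fold change beyond 0.58, which is 1.49-fold. The middle 90% of log2 fold changes ran from -0.51 to 0.52.

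The levels of the 10 genes covered a wide range. Counted as CPM per kilobase of the transcript used, the mean over the 6 libraries was 458 for *Itgb2*, 340.1 for *Cd44*, 262 for *Itgb1*, 159.7 for *Selplg* and 110.2 for *Itgax*, and the values of neighbours in this order did not overlap. All of these stood above the 95th percentile of the tested genes. A second tier held *Icam1* at 14.9, *Itga4* at 14.6, *Itgb7* at 11.7 and *Spn* at 8.38 CPM per kilobase, and neighbours in this order overlapped. *Itgal* came last at 0.737, at the 8.6th percentile of tested genes. *Itgb2*, *Itgb1* and *Cd44* were therefore among the most abundant transcripts of these macrophages, while *Spn* sat near the middle, at the 47.9th percentile. The level of *Cd44* carries a limit: its 6 rows, for transcripts of 1412 to 5614 bases, had the same counts, so the isoform behind the reads is not known. With the longest transcript its level was 212 CPM per kilobase, below *Itgb1*, so the order of these 2 genes depends on the row. The level of *Spn* depends on the row too, at 4.81 CPM per kilobase with its longest transcript. Its percentile and its overlap with *Itgb7* therefore hold for the row used.

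**Figure D1:**
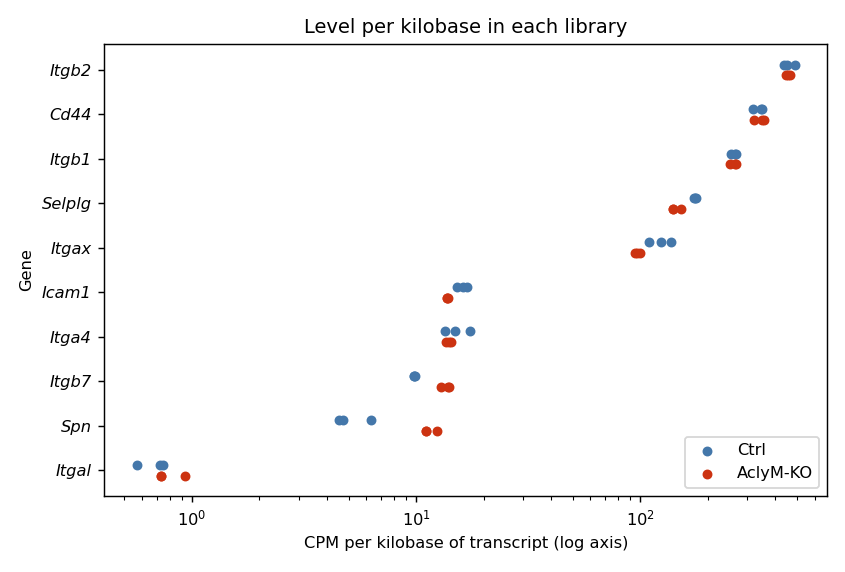
Level of each of the 10 genes in CPM per kilobase of transcript on a log axis, with 1 point for each library (blue, Ctrl; red, AclyM-KO). *Itgb2* leads with a mean of 458, *Itgal* is lowest at 0.737, and *Spn* and *Itgb7* have their red points to the right of all blue points.

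Of the 10 genes, 1 was called, *Spn*, which is 1 of 10 beside 5.55% of all tested genes. The CPM of the groups did not overlap for 5 of the 10 (*Spn*, *Itgb7*, *Selplg*, *Icam1* and *Itgax*), beside 40.2% of all tested genes. The same 5 had an adjusted p under 0.05 in the fit across all genes when no fold change limit was applied, beside 24.9% of all tested genes. Since the 10 genes were chosen with this difference known, these counts describe them and test nothing. The median log2 fold change of the 10 was -0.01, and that of all tested genes was 0.00. Bulk RNA does not separate a change in RNA per cell from a change in the share of cells that carry it.

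**Figure D2:**
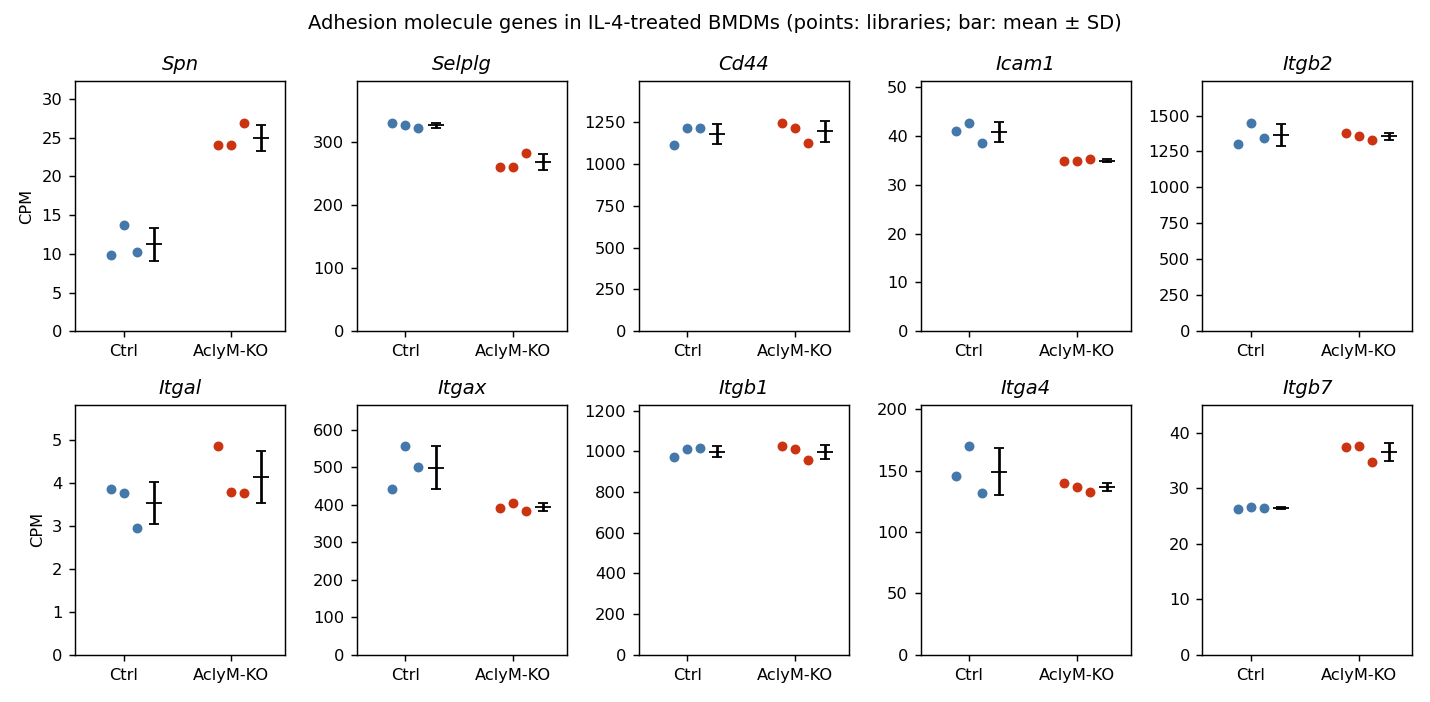
CPM of each gene in every library, with Ctrl in blue and AclyM-KO in red, and the mean ± SD beside the points (n = 3). The *Spn* points lie at 9.80 to 13.7 in Ctrl and at 24 to 26.9 in AclyM-KO, while *Cd44*, *Itgb1* and *Itgb2* have groups that overlap.

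*Spn* encodes CD43, the main sialomucin of the leukocyte surface, and lies on the minus strand of chromosome 7 from 127132232 to 127137823 (GRCm38, GENCODE M21). It had 145, 167 and 135 counts in Ctrl against 352, 373 and 393 in AclyM-KO. In CPM the Ctrl libraries were at 9.80, 13.7 and 10.25, and the AclyM-KO libraries at 24 to 26.9. Every AclyM-KO library was above every Ctrl library, and the second Ctrl library was the highest of its group. The mean was 11.2 ± 2.11 CPM in Ctrl and 24.98 ± 1.69 CPM in AclyM-KO (SD, n = 3), a fitted 2.24-fold difference and a log2 fold change of 1.16 ± 0.12 (SE). By size of the log2 fold change it ranked 167th of 12023 genes. The row used was a transcript of 2161 bases with 4 exons and 1565 counts in all, and the lowest of the 3 *Spn* rows had 1549 counts, so the choice of row hardly moved the counts. It did move the length: with the longest transcript, 3743 bases, the level was 4.81 rather than 8.38 CPM per kilobase.

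The mucin *Selplg*, whose product PSGL-1 is the chief ligand of P-selectin on leukocytes, went the other way. Its CPM was 329.7, 325 and 321 in Ctrl and 259.7, 259.8 and 281 in AclyM-KO. The groups did not overlap, and the Ctrl libraries were nearly equal. The log2 fold change was -0.29 ± 0.05 (SE), so AclyM-KO stood at 82.1% of the Ctrl mean, within the fold change limit. The gene has 2 exons and lies on the minus strand of chromosome 5 from 113818536 to 113832644. Between these mucins the balance shifted. The ratio of *Spn* to *Selplg*, each per kilobase, was 0.0296 ± 0.0056 in Ctrl and 0.0803 ± 0.0016 in AclyM-KO (SD, n = 3), without overlap. Its size rests on the *Spn* row used. With the longest *Spn* transcript the level of *Spn*, and so the ratio, is lower in both groups.

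*Cd44*, the receptor for hyaluronan on the minus strand of chromosome 2 from 102811141 to 102901665, had 1113, 1217 and 1214 CPM in Ctrl and 1248, 1216 and 1124 CPM in AclyM-KO. The groups overlapped, with the lowest library in Ctrl and the highest in AclyM-KO. The log2 fold change was 0.02, and 2 SE on either side reached from -0.08 to 0.11. *Icam1*, the immunoglobulin-family ligand of the β2 integrins, lies on the plus strand of chromosome 9 from 21015985 to 21028817. It had 606, 522 and 509 counts in Ctrl against 511, 541 and 514 in AclyM-KO, or 40.9, 42.7 and 38.6 against 34.9, 34.8 and 35.2 CPM. Raw counts overlapped while CPM did not, and the AclyM-KO libraries were nearly equal. The log2 fold change was -0.22 ± 0.07 (SE). An antisense gene, *Gm47079*, covers 20.2% of the exonic bases of *Icam1*, and its reads were not separated by strand.

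The shared chain of the leukocyte integrins, *Itgb2* (CD18), on the plus strand of chromosome 10 from 77530252 to 77565708, had 1302, 1450.0 and 1344 CPM in Ctrl and 1382, 1357 and 1332 in AclyM-KO. All 3 AclyM-KO values lay inside the Ctrl range. The log2 fold change was -0.01, with 2 SE reaching from -0.09 to 0.08. Its partner *Itgax* (CD11c), the αX chain of a complement receptor that also marks dendritic cells, is on the plus strand of chromosome 7 from 128129547 to 128150657. *Itgax* had 440.8, 555 and 499.5 CPM in Ctrl and 392, 405 and 384 in AclyM-KO. The groups did not overlap, but the Ctrl libraries spread widely, with an SD of 57.3 CPM against 10.4 CPM. The log2 fold change was -0.34 ± 0.07 (SE), and without the second Ctrl library, the highest, it was -0.26.

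*Itgal* (CD11a), the αL chain that makes LFA-1 with β2 and binds ICAM-1, lies on the plus strand of chromosome 7 from 127296260 to 127335138. It had 57, 46 and 39 counts in Ctrl against 71, 59 and 55 in AclyM-KO. In CPM the groups overlapped, at 3.53 ± 0.49 against 4.14 ± 0.61 (SD, n = 3), and the log2 fold change of 0.23 had 2 SE reaching from -0.17 to 0.62. At this depth a difference of that size could not be told from none.

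Set against each other per kilobase, the α chains that pair with β2 were unequal. *Itgam*, the αM chain of Mac-1, made up 55.0% to 58% of their summed level in the 6 libraries and *Itgax* 41.4% to 44.7%. *Itgal* contributed 0.206% to 0.399% and *Itgad* 0.0138% to 0.14%. In both groups LFA-1's α chain was thus a trace next to those of the complement receptors. The ratio of *Itgax* to *Itgb2* was 0.267 ± 0.017 in Ctrl and 0.213 ± 0.006 in AclyM-KO, and that of *Itgam* to *Itgb2* was 0.343 ± 0.006 and 0.284 ± 0.012 (SD, n = 3). Neither ratio overlapped between the groups. The ratio of *Itgax* to *Itgam* did overlap, at 0.781 ± 0.049 and 0.751 ± 0.052. So did that of *Itgal* to *Itgb2*, at 0.00148 ± 0.000215 in Ctrl and 0.00174 ± 0.000225 in AclyM-KO. *Itgam*, which was not among the selected genes, had a log2 fold change of -0.28 ± 0.05 (SE, edgeR adjusted p = 0.00113), inside the fold change limit.

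*Itgb1*, the most widely shared β chain and one that binds matrix, lies on the plus strand of chromosome 8 from 128685654 to 128733200. It had 969.8, 1012 and 1015 CPM in Ctrl and 1024, 1012 and 957 in AclyM-KO. The groups overlapped, the log2 fold change was 0.00, and 2 SE reached from -0.08 to 0.08. *Itga4*, the α4 chain that binds VCAM-1 with β1 and MAdCAM-1 with β7, on the plus strand of chromosome 2 from 79255426 to 79333123, had 146, 169.7 and 132 CPM in Ctrl and 139.6, 137 and 133 in AclyM-KO. These groups overlapped too, with a log2 fold change of -0.13 and 2 SE reaching from -0.27 to 0.02. Exons of *Cerkl* on the other strand cover 11.5% of the exonic bases of *Itga4*, and *Cerkl* had a log2 fold change of -0.10.

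*Itgb7*, the β chain that makes the gut-homing integrin α4β7 with *Itga4* and pairs with αE in the epithelium, lies on the minus strand of chromosome 15 from 102215995 to 102231944. Its counts were 388, 325 and 348 in Ctrl and 548, 584 and 507 in AclyM-KO, or 26.2, 26.6 and 26.4 CPM against 37.4, 37.6 and 34.7 CPM. Every AclyM-KO library was above the Ctrl libraries, which were nearly equal. The log2 fold change was 0.47 ± 0.07 (SE), or 1.39-fold, below the limit for a call and ranked 1405th of 12023 by size. It and *Spn* bracket the limit among the positive differences. The ratio of *Itgb7* to *Itgb1* per kilobase was 0.0376 ± 0.0007 in Ctrl and 0.0521 ± 0.0006 in AclyM-KO (SD, n = 3), without overlap. With *Itga4* overlapping and *Itgb7* higher, *Itga4* had 1.55 ± 0.19 times the level of *Itgb7* per kilobase in Ctrl and 1.03 ± 0.03 times in AclyM-KO. The ratio of *Itga4* to *Itgb1* overlapped, at 0.0583 ± 0.0074 in Ctrl and 0.0535 ± 0.0007 in AclyM-KO. *Itgae*, the αE partner, had a log2 fold change of -0.39 that was not called (edgeR adjusted p = 0.0673).

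**Figure D3:**
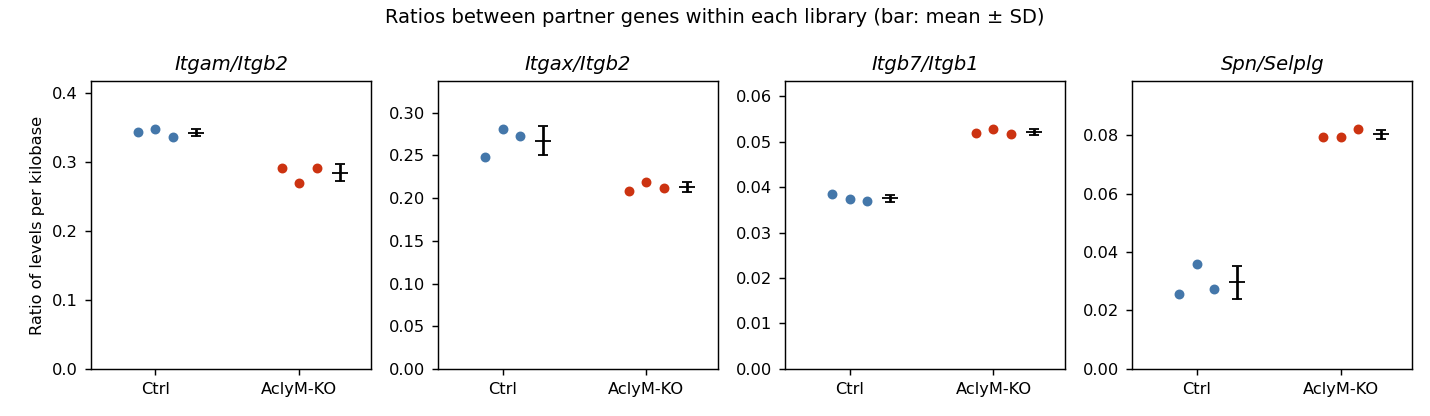
Ratio of the levels per kilobase of 4 gene pairs in each library (blue, Ctrl; red, AclyM-KO), with the mean ± SD beside the points. The groups do not overlap for the pairs shown. They overlapped for *Itgax* to *Itgam*, *Itgal* to *Itgb2* and *Itga4* to *Itgb1*, which are not shown. *Itgam* and *Itgax* are lower relative to *Itgb2* in all 3 AclyM-KO libraries, and *Itgb7* relative to *Itgb1* and *Spn* relative to *Selplg* are higher.

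**Figure D4:**
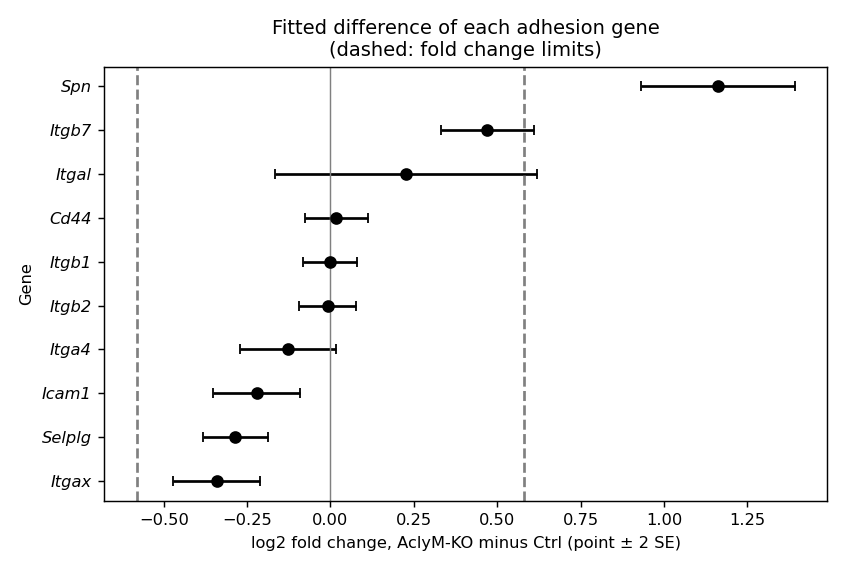
Log2 fold change of each gene, AclyM-KO minus Ctrl, with bars of 2 SE on either side and dashed lines at the fold change limit of 0.58. *Spn* at 1.16 lies beyond the limit, *Itgb7* at 0.47 inside it, and *Itgb1*, *Itgb2* and *Cd44* lie at zero within 0.02.

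The genes nearest to *Spn* in pattern were found by the root mean square difference of log2 CPM, centred on each gene's mean, over the 6 libraries. They were *Smpd3*, a neutral sphingomyelinase, at 0.0424, the RNA-binding protein *Nanos1* at 0.105, *Mira* at 0.107, *Fasn*, the fatty acid synthase, at 0.112 and the Notch-binding membrane protein *Dner* at 0.13. *Smpd3* and *Mira* had few counts, at most 37 and 15 in any library. *Fasn* had 5475, 5028 and 4893 counts in Ctrl against 12384, 12192 and 12387 in AclyM-KO, a log2 fold change of 1.10. Since this likeness uses the same libraries as the selection, it is a description.

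*Spn*, *Itgal* and *Itgax* share chromosome 7, and their neighbours were looked at after the values were seen. None of the nearest tested genes of *Spn* was called: *Kif22* and *AI467606* on one side had log2 fold changes of -0.36 and -0.18, *Cd2bp2* and *Tbc1d10b* on the other -0.07 and -0.06. All 4 were below zero, as were 5976 of all 12023 tested genes. Beside *Itgal*, *Dctpp1*, *Sephs2*, *Zfp768* and *Zfp747* were not called either. Beside *Itgax*, *Pycard* and *Itgam* on one side were at -0.23 and -0.28. On its other side *Itgad* rose by 1.38 ± 0.46 (SE, edgeR adjusted p = 0.0396) and *Cox6a2*, a muscle-type subunit of cytochrome c oxidase, rose by 1.34 ± 0.26 (SE, edgeR adjusted p = 0.00164) on the log2 scale. *Itgad* had 7, 6 and 2 counts in Ctrl against 19, 11 and 14 in AclyM-KO. Its call was lost in 5 of 13 alternatives.

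The rest of the adhesion system was taken from 10 lists of 162 other genes, of which 119 were tested. Of these, 4 were called higher and 5 lower, 7.56% beside 5.55% of all tested genes, and their median log2 fold change was -0.04. Among those called higher were P-selectin (*Selp*), the integrin chain *Itgad* and *Cd244a*, a receptor for CD48. Called lower were *Siglec1*, *Mmp14*, *Hyal1*, *Hyal3* and *Pecam1*. Without the first AclyM-KO library, 2 were called higher, since *Itgad* and *Cd244a* were lost.

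**Figure D5:**
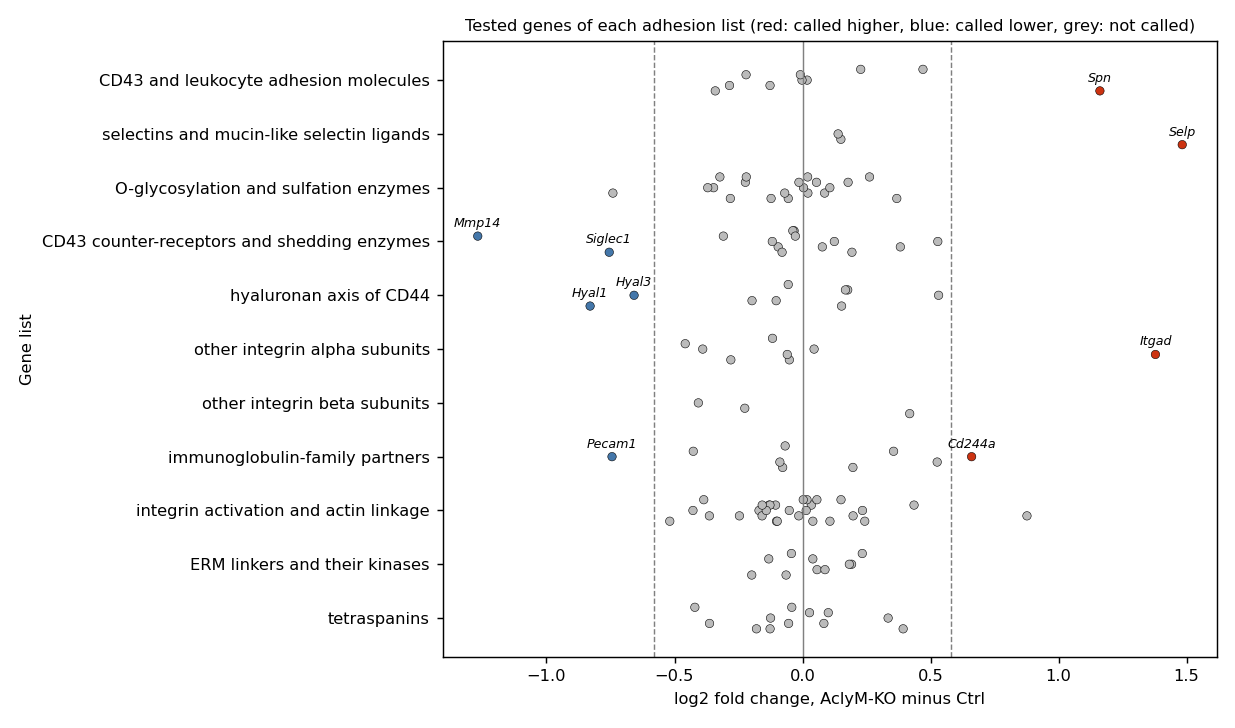
Log2 fold change, AclyM-KO minus Ctrl, of the 10 selected genes (top) and of the tested genes of the 10 lists that are reported here, with 1 point for each gene and dashed lines at 0.58 on either side. Red points were called higher and blue points lower, and among the list genes shown 3 are red and 5 are blue.

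Of the selectins and their mucin-like ligands, 4 of 12 were tested. *Selp*, P-selectin, known best from platelets and endothelium, had 50, 43 and 37 counts in Ctrl against 121, 156 and 129 in AclyM-KO. It rose by 1.48 ± 0.16 on the log2 scale (SE, edgeR adjusted p = 9.18e-06). This call stood in all 13 alternatives, at a low level. PSGL-1, its ligand, was described above as lower in AclyM-KO. *Cd164*, an abundant sialomucin, had a log2 fold change of 0.14 and *Cd24a* one of 0.15. *Sele* had at most 1 count in any library and *Madcam1*, the ligand of α4β7, at most 2.

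Many of the listed glycosylation and sulfation enzymes build the sugar chains of mucins such as CD43 and PSGL-1. None of the 20 tested was called, beside 5.55% of all tested genes. Without the fold change limit 2 were higher and 6 lower, beside 24.9% of all tested genes in either direction. *C1galt1*, which makes the core of the O-linked chain, had a log2 fold change of 0.37 ± 0.10 (SE, edgeR adjusted p = 0.0158). Of the 6 tested sialyltransferases, 5 were below zero and 1 above: *St3gal1*, which caps that core, was at -0.32 ± 0.05 (SE, edgeR adjusted p = 2.1e-04), *St3gal4* at -0.37 ± 0.06 (SE, edgeR adjusted p = 4.81e-04), *St3gal2* at -0.28 and *St6gal1* at -0.22. *St3gal3* was at -0.07 and *St3gal6* at 0.18, neither with an adjusted p under 0.05. The CPM of the groups did not overlap for the first 4 of these 6, a set formed after the values were seen, beside 40.2% of all tested genes. *Galnt6*, which starts O-linked chains, had the highest level per kilobase of the list.

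Among 14 tested genes for counter-receptors of CD43 and for enzymes that cut surface proteins, 2 were called lower and none higher. Over all tested genes, 2.57% were called lower. *Siglec1* (sialoadhesin), a macrophage lectin that binds sialylated CD43, had 2786, 2584 and 2611 counts in Ctrl against 1856, 1647 and 1774 in AclyM-KO. It fell by 0.76 on the log2 scale (SE 0.07, edgeR adjusted p = 8.44e-07). *Mmp14*, a membrane-bound protease that cuts CD44 among other proteins, had 264, 229 and 181 counts in Ctrl against 94, 132 and 86 in AclyM-KO, and fell by 1.27 (SE 0.15, edgeR adjusted p = 2.2e-05). The galectins *Lgals1* and *Lgals3*, lectins for which CD43 is a ligand, had log2 fold changes of 0.38 and 0.12, inside the limit. They were the most abundant genes of this list per kilobase. *Adam8* was at -0.31 and *Adam10*, which sheds CD44, at 0.19.

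On the hyaluronan side of CD44, 9 of 15 genes were tested and 2 were called, both lower, beside 2.57% of all tested genes. These 2 were the hyaluronidases *Hyal1*, with 813, 827 and 826 counts in Ctrl against 507, 570 and 477, and *Hyal3*, with 686, 623 and 633 against 452, 483 and 439. Their log2 fold changes were -0.83 ± 0.08 (SE, edgeR adjusted p = 1.6e-06) and -0.66 ± 0.06 (SE, edgeR adjusted p = 2.98e-06). *Spp1*, osteopontin, which CD44 and several integrins bind, was at 0.17 and the scavenger receptor *Stab1* at 0.15. The untested hyaluronan receptor *Lyve1*, noticed after its values were seen, had no count in Ctrl and 6, 5 and 5 in AclyM-KO.

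Of the other integrin chains, 11 of 21 were tested and 1, *Itgad*, was called, beside 5.55% of all tested genes. *Itgb3*, the β chain of the vitronectin receptor, had a log2 fold change of 0.42 ± 0.07 (SE, edgeR adjusted p = 2.62e-04) and *Itgb5* one of -0.23, while *Itga5* was at -0.06. Of 9 tested immunoglobulin-family partners, *Cd244a* rose by 0.66 ± 0.19 (SE, edgeR adjusted p = 0.0169), with 56, 44 and 50 counts in Ctrl and 107, 82 and 75 in AclyM-KO. *Pecam1*, which joins leukocytes to endothelium during crossing, fell by 0.74 (SE 0.11, edgeR adjusted p = 1.44e-04), with 232, 199 and 194 counts in Ctrl and 125, 154 and 137 in AclyM-KO. The CD48 gene, *Cd48*, was at -0.09 and *Cd47* at -0.07. *Vcam1*, the ligand of α4β1, had at most 37 counts.

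Over all tested genes, 5.55% were called. None was called among 30 tested genes that activate integrins or link them to actin, 10 ERM linkers and their kinases, and 12 tetraspanins. Without the fold change limit, the first of these lists had 3 higher and 9 lower genes of 30, beside 24.9% of all tested genes in either direction. Among the lower were *Fermt3* (kindlin-3), *Zyx* and *Src*. The 3 higher were *Ptk2* at a log2 fold change of 0.44, *Skap2* at 0.24 and *Rap1b* at 0.15. *Tln1*, the talin that switches integrins on, was at 0.04. *Msn*, moesin, the ERM protein with the highest level per kilobase in these cells, was at 0.19 ± 0.04 (SE, edgeR adjusted p = 0.00223), with *Rhoa* at 0.18. The abundant tetraspanins *Cd53* and *Cd9* were at 0.33 and -0.13.

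CD43 also marks non-classical monocytes, T cells, neutrophils and progenitors, so markers of these were read beside *Spn*. Of the neutrophil list, 5 of 10 genes were tested and 3 were called higher (*S100a8*, *S100a9* and *Mmp8*), beside 2.98% of all tested genes. The list summed to 33.3 to 35.9 CPM in Ctrl and 63.8 to 68.1 CPM in AclyM-KO. Most of that difference was *Mmp8*, at 16.9 CPM in Ctrl and 40.1 in AclyM-KO. The call of *S100a9* was lost with scaling by library size alone and without the third Ctrl library. The granule genes *Ngp* and *Ltf* were at 0.37 and 0.35 and not called, and all 5 tested genes had groups that did not overlap, beside 40.2% of all tested genes. The untested genes were near 0: *Ly6g* had at most 1 count in any library, *Elane* at most 2, *Camp* and *Retnlg* at most 4 and *Mpo* at most 5. *Kit*, one of 5 progenitor genes, rose by 1.26 ± 0.19 on the log2 scale (SE, edgeR adjusted p = 1.65e-04). The summed list stood at 115 to 183 CPM in Ctrl and 117 to 123 in AclyM-KO. Almost all of it was *Mki67*, a gene of dividing cells in general, at a log2 fold change of -0.29 and not called. The rest of the list was untested: *Cd34* reached at most 11 counts in any library, *Flt3* and *Gata1* at most 1. Of the T cell genes, *Cd3d*, *Cd3e* and *Cd3g* had at most 2 counts, and the sum of 306 to 344 CPM in Ctrl and 305 to 329 in AclyM-KO was almost all *Il7r*. The non-classical monocyte genes without *Spn* summed to 188 to 212 CPM in Ctrl and 212 to 233 in AclyM-KO, mostly *Fabp4*. The 2 tested genes of this list went opposite ways, and neither was called. *Fabp4* was at 0.17 on the log2 scale with groups that overlapped, and *Nr4a1* at -0.51 with groups that did not. The untested *Cd300e*, with at most 4 counts, was higher in AclyM-KO without overlap. *Ace* reached at most 1 count, and only in Ctrl. Of that list *Cx3cr1* had no count in any library and *Treml4* had 0, 1 and 2 in Ctrl and 6, 7 and 5 in AclyM-KO. Of 8 macrophage genes, *Lyz2* and *Mertk* were called lower and none higher, beside 2.57% of all tested genes called lower. The macrophage list summed to 13400.0 to 14710.0 CPM in Ctrl and 11090.0 to 11540.0 in AclyM-KO. Most of that difference was *Lyz2*, the gene that carries the Cre, at 6595 CPM in Ctrl and 4142 in AclyM-KO. *Adgre1* of the same list went the other way, from 1573 to 1978 CPM, with a log2 fold change of 0.33 ± 0.04 (SE, edgeR adjusted p = 2.27e-05), inside the limit. The part of such cells in the difference at *Spn* was not tested.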

How the data were processed

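Strand-specific mRNA libraries (KAPA mRNA HyperPrep) of IL-4-treated BMDMs were sequenced on an Illumina instrument. The authors aligned reads to mm10 with STAR 2.5.2b and deposited raw counts per RefSeq transcript. CASAVA 1.8.2 is also named in the submitters' processing notes, and the counting program is not given in the sources used here. The counts were made without strand: *Xist* and its antisense *Tsix* had 7864 counts each in the first Ctrl library. Of 35745 rows, 35440 were paired with genes through RefSeq for GRCm38.p6 and 188 through GENCODE M21, and 117 without a gene (0.370% to 1.38% of counts) were left out. The design had assumed counts per gene, so the row with the highest total was kept for each gene, since rows of a gene share reads.

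The quasi-likelihood test of edgeR 4.0.16 (R 4.3.3) was run on these counts after filterByExpr and TMM scaling, with glmQLFit and glmQLFTest and no term but genotype. Benjamini-Hochberg adjustment covered 12023 genes. The procedure was tested on simulated data. CPM uses TMM-scaled library sizes, and SE is that of the log2 fold change. Counts carry counting error as well as the spread between libraries, so genes with few counts are less precise. Depth was 12151975 to 15587283 counts. Replicates differed by more than sampling noise (chi-square per gene 2.36 to 7.57).

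The genes, the lists and the rule for named genes were chosen with earlier results of these data known. That rule names the 10 genes, *Acly*, *Lyz2*, called genes of each list, its 2 genes with the highest level per kilobase, the 5 genes nearest to *Spn* and genes overlapping a selected gene. Other genes were named after their values were seen. Alternatives were DESeq2 1.42.0, limma-voom (limma 3.58.1), library size without TMM, other filters, the longest transcript, other fold change limits, a replicate block and leaving out each library. Protein sequences and naive BMDMs were not analysed here, and results for some single genes are left out of the text and the plots.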

Additional observations from a re-analysis of the deposited data

How the results depend on the processing

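*Spn* was called in all 13 alternatives that kept the fold change limit, with log2 fold changes from 1.07 to 1.31, and none of the other 9 selected genes was called in any of these. Without the fold change limit, 5 of the 10 selected genes, 21 other adhesion genes higher and 28 lower were called, as were 1485 genes higher and 1511 lower among all genes. With a log2 fold change limit of 1, the counts were 145 genes higher and 80 lower among all genes, with 3 other adhesion genes higher and 1 lower. Leaving out each library in turn gave 315 to 374 genes higher and 271 to 317 lower, 2 to 4 other adhesion genes higher and 5 lower, and 1 of the selected genes called. The lowest of these adhesion counts came without the first AclyM-KO library. Over the same fits the log2 fold change ran from -0.03 to 0.06 for *Cd44*, from -0.03 to 0.03 for *Itgb1* and from -0.04 to 0.03 for *Itgb2*, so these had no stable sign. *Itgad* was lost with DESeq2 and without Ctrl replicate 1 or 3 or AclyM-KO replicate 1 or 3. Scaling by library size alone moved the median log2 fold change of all genes by -0.02. The level per kilobase with the longest transcript was 4.81 for *Spn* and 212 for *Cd44*.

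No label says that a number pairs libraries, and same-numbered libraries did not deviate together (correlations of -0.07, 0.05 and -0.03). With a replicate block, 350 genes were called higher and 302 lower, 4 and 5 of the other adhesion genes, and the log2 fold change of *Spn* was 1.16. With 3 libraries a group, genes at the depth of *Itgal* have intervals too wide to place a difference.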
